A study of Mus musculus with 9 samples.

Results

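The genes described here are 10 textbook targets of glucocorticoid hormone, Fkbp5, Tsc22d3, Zbtb16, Sgk1, Mt1, Mt2, Klf9, Cdkn1a, Errfi1 and Ddit4, taken from the 18193 genes that the array measured with a probe set of their own. They were chosen by name from general knowledge of the hormone, with earlier results of these data known. All 10 were measured, by 26 probe sets in all, and a gene's level below is that of its brightest probe set unless another is named. Each probe set is a group of short oligonucleotides on the chip that reports a transcript as a log2 expression value, so that a difference of 1 is a doubling. The data came from 4 aortas labelled BMAL-/- (arrays F02, F03, F05 and F08) and 5 labelled BMAL+/+ (F01, F04, F07, F09 and F10), with 1 array each. The BMAL-/- mice are labelled as homozygous for a null allele of Arntl, the gene of the clock factor BMAL1, and all mice of either genotype were males partly backcrossed onto C57Bl/6J. Ages are not given in the labels used here. Every animal was kept in 12 h of light a day for at least 2 weeks, then in darkness for at least 30 h, and was killed under anaesthesia at ZT14, after which blood was drawn, the animal was perfused and the aorta was taken from the arch to past the branching of the femoral arteries. No glucocorticoid was given to either group and the hormone's blood level is not part of these data, so the label of these genes rests on what is known of them elsewhere.

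Corticosterone, the main glucocorticoid of mice, crosses the cell membrane and binds the glucocorticoid receptor, which then enters the nucleus and binds DNA at a pair of inverted hexamers. Its secretion follows the circadian clock and peaks around the start of the active phase, at dusk in mice. In the vessel wall, smooth muscle, endothelium, adventitial fibroblasts and the surrounding fat all carry the receptor. Among its targets, Fkbp5 encodes a co-chaperone that lowers the receptor's affinity for hormone, Tsc22d3 encodes the anti-inflammatory protein GILZ, and Zbtb16 and Klf9 encode transcription factors. Mt1 and Mt2 are neighbouring genes for metallothioneins, small proteins that bind zinc and are also induced by metals through the metal response element.

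Stretches of promoter are shown for Fkbp5, Mt1 and Mt2, which shared their lowest arrays (F02, F03, F04 and F08), and for Sgk1, whose lowest arrays differed. Each was picked because it holds the motif marked in it. Tsc22d3, which had the same lowest arrays as Fkbp5, is not shown. They come from RefSeq (GRCm38.p6) and run from 250 bases before to 50 bases after an annotated transcript start, 300 bases in all. Of the 10 genes, 9 matched the table, with 18 such windows between them. The capitals mark the E-box CACGTG, which BMAL1 and its partners can bind, in Fkbp5, the metal response elements (TGCACNC or TGCGCNC, either strand) in Mt1 and Mt2, and in Sgk1 the inverted hexamers AGAACA and TGTTCT with 3 bases between them.
Fkbp5 (chr17:28486100-28486399, minus strand): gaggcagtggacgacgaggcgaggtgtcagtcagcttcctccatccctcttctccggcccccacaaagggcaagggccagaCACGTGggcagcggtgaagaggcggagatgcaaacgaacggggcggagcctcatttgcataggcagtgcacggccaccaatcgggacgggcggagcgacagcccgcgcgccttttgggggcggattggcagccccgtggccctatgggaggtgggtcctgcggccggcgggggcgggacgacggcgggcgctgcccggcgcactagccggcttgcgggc
Mt1 (chr8:94178839-94179138, plus strand): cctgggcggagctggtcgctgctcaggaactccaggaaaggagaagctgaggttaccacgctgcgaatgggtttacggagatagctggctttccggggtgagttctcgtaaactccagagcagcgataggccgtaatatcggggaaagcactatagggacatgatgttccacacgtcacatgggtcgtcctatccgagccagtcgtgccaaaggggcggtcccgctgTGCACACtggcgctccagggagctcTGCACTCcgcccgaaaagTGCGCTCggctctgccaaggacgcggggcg
Mt2 (chr8:94172368-94172667, plus strand): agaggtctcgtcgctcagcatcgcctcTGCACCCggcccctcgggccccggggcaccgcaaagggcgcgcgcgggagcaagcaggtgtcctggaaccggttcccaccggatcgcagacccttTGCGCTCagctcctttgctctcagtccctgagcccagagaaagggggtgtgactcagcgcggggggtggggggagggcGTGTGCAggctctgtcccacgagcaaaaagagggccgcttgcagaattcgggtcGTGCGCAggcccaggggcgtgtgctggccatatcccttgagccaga
Sgk1 (chr10:21993640-21993939, plus strand): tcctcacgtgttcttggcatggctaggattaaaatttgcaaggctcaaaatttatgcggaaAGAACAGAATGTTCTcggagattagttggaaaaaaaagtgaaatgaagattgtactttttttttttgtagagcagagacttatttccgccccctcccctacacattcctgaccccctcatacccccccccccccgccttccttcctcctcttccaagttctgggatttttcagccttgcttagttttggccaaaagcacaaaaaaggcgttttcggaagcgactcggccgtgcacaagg
The E-box of Fkbp5 lies at bases -169 to -164 from the start, and an E-box was found in 7.15% of all 32851 windows of that length. The inverted hexamers of Sgk1 lie at bases -189 to -175 and were present in 3 of the 32851 windows (0.00913%). That window of Sgk1 also holds an E-box at bases -246 to -241, which shares its last bases with another TGTTCT. The metal response element was matched 3 times in Mt1 and 4 times in Mt2, and 25.7% of all windows hold at least 1 match. It was also matched in windows of Sgk1 and Ddit4, whose lowest arrays differed from those of Mt1 and Mt2. No E-box was matched in the windows of Tsc22d3, Mt1 or Mt2. A lone hexamer (TGTTCT, either strand), found in 19.0% of all windows, was matched in windows of Sgk1 and Tsc22d3. A match is a description of letters and was not tested as a binding site.

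Some arrays stood apart from their group in genes other than the 10. Arntl read 5.87 to 6.22 on F02, F03 and F08, labelled BMAL-/-, and 2.74 to 2.82 on 4 of the arrays labelled BMAL+/+ (F01, F07, F09, F10). The signal was thus higher in BMAL-/-, and where this probe set sits relative to the deletion was not determined, so it does not check the loss of BMAL1. The array labelled BMAL-/- F05 read 2.77 and the array labelled BMAL+/+ F04 read 6.67, so that each lay with the other genotype. Results are therefore given for the 9 arrays as labelled and for the 7 without F04 and F05, and every direction rests on the labels. F01 carries BMAL+/+ in its title and strain and BMAL-/- in its source name. The integrity of the RNA also differed. On F02, F03 and F04 the 3' control probe set of Actb read 3.91 to 4.24 above its 5' one, against 1.38 to 2.72 on the other 6 arrays. The corresponding Gapdh differences were 2.88 to 3.31 on F02, F03 and F04, against -0.13 to 1.26 on the others. Between the groups as labelled the Actb difference averaged 3.14 ± 1.27 (SD) in the 4 BMAL-/- arrays and 2.23 ± 1.08 (SD) in the 5 BMAL+/+ arrays (two-sided exact permutation p = 0.238).

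Fkbp5 showed the clearest split of the 10. It read 6.75 (F02), 5.82 (F03), 8.75 (F05) and 6.08 (F08) in the BMAL-/- aortas, against 8.86 (F01), 5.91 (F04), 8.73 (F07), 9.02 (F09) and 8.32 (F10) in the BMAL+/+ aortas. The 9 values thus fell into 2 separate sets 1.57 apart, a low one of F02, F03, F08 and F04 and a high one of F05 and the other 4 arrays labelled BMAL+/+. As labelled, the level averaged 6.85 ± 1.33 (SD) over 4 BMAL-/- arrays and 8.17 ± 1.29 (SD) over 5 BMAL+/+ arrays, and the change of -1.32 ± 0.79 (SE) did not pass (limma adjusted p = 0.381). Without F04 and F05 it averaged 6.22 ± 0.48 (SD) over 3 BMAL-/- arrays and 8.73 ± 0.30 (SD) over 4 BMAL+/+ arrays, that is 5.72-fold lower in BMAL-/- (-2.52 ± 0.28, SE, limma adjusted p = 0.121). This too missed the threshold of 0.05 over all 45037 probe sets, although the 2 groups of arrays did not overlap. The next brightest probe set of Fkbp5 had the same 4 arrays at the bottom and differed by -2.13 ± 0.39 (SE) in the 7 arrays. F02 was lowest there, at 2.54, near the floor of the measurement, but was the highest of those 4 at the brightest probe set. The dimmest probe set read 2.60 to 2.75 everywhere, at that floor.

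**Figure D1:**
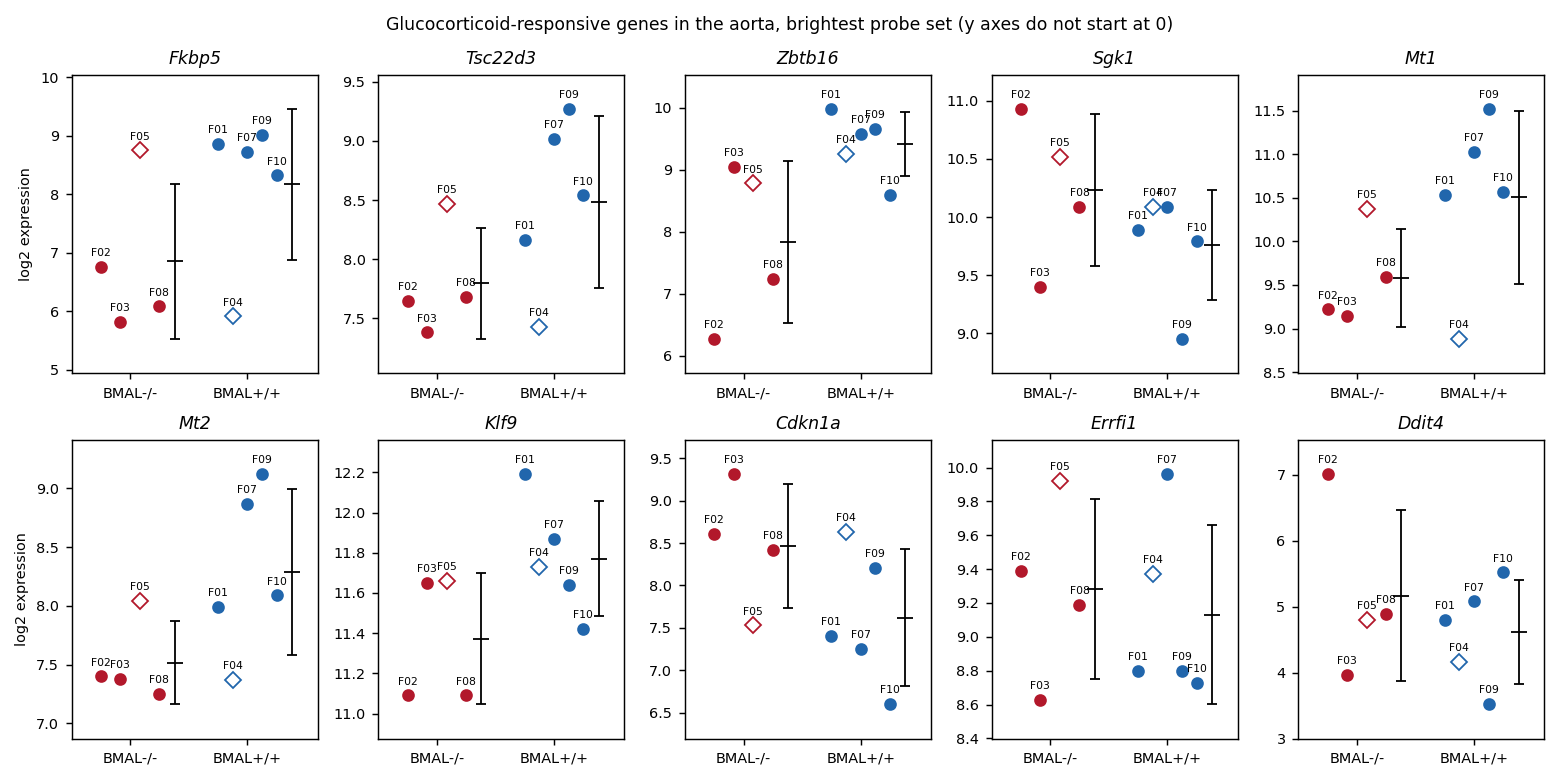
Log2 expression of the 10 genes at their brightest probe set, BMAL-/- left and BMAL+/+ right, 1 point per array, with open diamonds for F04 and F05, whose clock genes lay with the other genotype. Bars give mean and SD of the arrays as labelled. In Fkbp5, Tsc22d3, Mt1 and Mt2 the point of F04 lies with F02, F03 and F08 and that of F05 with the other BMAL+/+ arrays.

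Tsc22d3, whose protein GILZ restrains inflammatory transcription, was lowest on the same 4 arrays. In BMAL-/- it read 7.65 (F02), 7.38 (F03), 8.47 (F05) and 7.68 (F08), against 8.16 (F01), 7.43 (F04), 9.02 (F07), 9.27 (F09) and 8.54 (F10) in BMAL+/+. The gap between the low 4 and the rest was 0.48, and the groups as labelled overlapped through F04 and F05. The difference was -0.69 ± 0.39 (SE) as labelled (limma adjusted p = 0.373) and -1.18 ± 0.29 (SE) in the 7 arrays, where the groups did not overlap (limma adjusted p = 0.208). Its second bright probe set had the same 4 arrays at the bottom (-1.02 ± 0.26, SE, in the 7 arrays), and its 2 dimmer ones differed by 0.08 and 0.02.

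Zbtb16, a zinc finger repressor also called PLZF, followed another order. It read 6.27 (F02), 9.05 (F03), 8.78 (F05) and 7.24 (F08) in BMAL-/-, against 9.98 (F01), 9.26 (F04), 9.58 (F07), 9.66 (F09) and 8.60 (F10) in BMAL+/+. Here F02 and F08 were low, while F03 and F04 lay among the BMAL+/+ arrays. Of the 10 genes it was the only one with an unadjusted limma p under 0.05 as labelled (-1.58 ± 0.57, SE, limma unadjusted p = 0.023, adjusted p = 0.37). That level was lost with F01 counted as BMAL-/- (-1.01, limma unadjusted p-value 0.185). It was also lost when F02 (-1.06), F08 (-1.38) or F01 (-1.44) was left out, with unadjusted limma p-values of 0.0543, 0.0654 and 0.0513. At this probe set the groups overlapped with and without F04 and F05, and the difference in the 7 arrays was -1.93 ± 0.67 (SE, adjusted p = 0.208). Its other 2 probe sets differed by -1.62 and -1.47 in the 7 arrays, and at the first of these the groups did not overlap.

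Klf9, a Krüppel-like factor that slows proliferation and is itself rhythmic in many tissues, varied least among the lower genes. It read 11.09 (F02), 11.65 (F03), 11.66 (F05) and 11.09 (F08) in BMAL-/-, against 12.19 (F01), 11.73 (F04), 11.87 (F07), 11.64 (F09) and 11.42 (F10) in BMAL+/+. F02 and F08 were lowest and F01 highest, with the remaining arrays between 11.42 and 11.87. The difference was -0.40 ± 0.20 (SE) as labelled and -0.51 ± 0.23 (SE) in the 7 arrays (limma adjusted p = 0.37 and 0.214), and with F01 counted as BMAL-/- it was -0.13 and -0.14. Among its 6 other probe sets, 4 had differences of -0.45 to -2.16 in the 7 arrays, and the 2 at the floor differed by 0.04 and 0.02. At 2 of those 4, with differences of -2.16 and -0.80, the low arrays were F02, F03, F04 and F08, as in Fkbp5, but F05 lay only 0.07 and 0.01 above them.

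The metallothioneins moved together. Mt1 read 9.22 (F02), 9.14 (F03), 10.37 (F05) and 9.59 (F08) in BMAL-/-, against 10.53 (F01), 8.88 (F04), 11.03 (F07), 11.52 (F09) and 10.57 (F10) in BMAL+/+. Mt2 read 7.40 (F02), 7.38 (F03), 8.04 (F05) and 7.25 (F08) in BMAL-/-, against 7.99 (F01), 7.37 (F04), 8.87 (F07), 9.12 (F09) and 8.09 (F10) in BMAL+/+. In both genes the low 4 were F02, F03, F08 and F04, and F07 and F09 were the highest. Mt1 differed by -0.92 ± 0.51 (SE) as labelled and by -1.60 ± 0.28 (SE) in the 7 arrays, 3.02-fold lower in BMAL-/- (limma adjusted p = 0.37 and 0.208). For Mt2 the corresponding differences were -0.77 ± 0.36 (SE) and -1.18 ± 0.31 (SE), the second being 2.26-fold lower (limma adjusted p = 0.37 and 0.208). The other probe set of Mt1 read 2.95 to 3.02 on all arrays, at the floor, so the Mt1 result rests on the brighter one. That brighter probe set is of a type whose oligonucleotides can match more than 1 transcript. Because the 2 genes are close copies, their signals may not be fully separate.

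Cdkn1a, which encodes the cell cycle inhibitor p21, ran the other way. It read 8.61 (F02), 9.31 (F03), 7.53 (F05) and 8.42 (F08) in BMAL-/-, against 7.41 (F01), 8.63 (F04), 7.25 (F07), 8.21 (F09) and 6.60 (F10) in BMAL+/+. F02, F03, F08 and F04 were the highest 4, but F09 lay only slightly below F08. The difference was 0.85 ± 0.47 (SE) as labelled and 1.42 ± 0.41 (SE) in the 7 arrays, 2.67-fold higher in BMAL-/-, with no overlap there (limma adjusted p = 0.371 and 0.208). Its other probe set read 1.90 to 2.00 on all arrays, at the floor.

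Sgk1, Errfi1 and Ddit4 did not separate the genotypes under either grouping. Sgk1, a kinase that raises sodium channel activity, read 10.93 (F02), 9.40 (F03), 10.52 (F05) and 10.09 (F08) in BMAL-/-, against 9.89 (F01), 10.09 (F04), 10.09 (F07), 8.95 (F09) and 9.79 (F10) in BMAL+/+. F02 was its highest array and F09 its lowest. The difference was 0.47 ± 0.35 (SE) as labelled and 0.46 ± 0.42 (SE) in the 7 arrays (limma adjusted p = 0.444 and 0.47). Leaving out F02 gave 0.24 and 0.06, leaving out F09 gave 0.27 and 0.22, and leaving out F03 gave 0.75 and 0.83. Ddit4, an inhibitor of mTOR complex signalling that also responds to hypoxia, read 7.01 on F02, 3.97 on F03, 4.80 on F05 and 4.89 on F08 in BMAL-/-, against 4.80 (F01), 4.16 (F04), 5.08 (F07), 3.52 (F09) and 5.52 (F10) in BMAL+/+. Its difference of 0.55 ± 0.62 (SE) as labelled rested on F02, without which it was -0.06. Errfi1, an inhibitor of the EGF receptor, read 9.39 (F02), 8.63 (F03), 9.92 (F05) and 9.19 (F08) in BMAL-/-, against 8.80 (F01), 9.37 (F04), 9.96 (F07), 8.80 (F09) and 8.73 (F10) in BMAL+/+. F05 and F07, from different groups, were its highest arrays. It differed by 0.15 ± 0.33 (SE) as labelled and by 0.00 ± 0.36 (SE) in the 7 arrays, while its other probe set differed by -1.43 ± 0.83 (SE) in the 7 arrays.

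**Figure D2:**
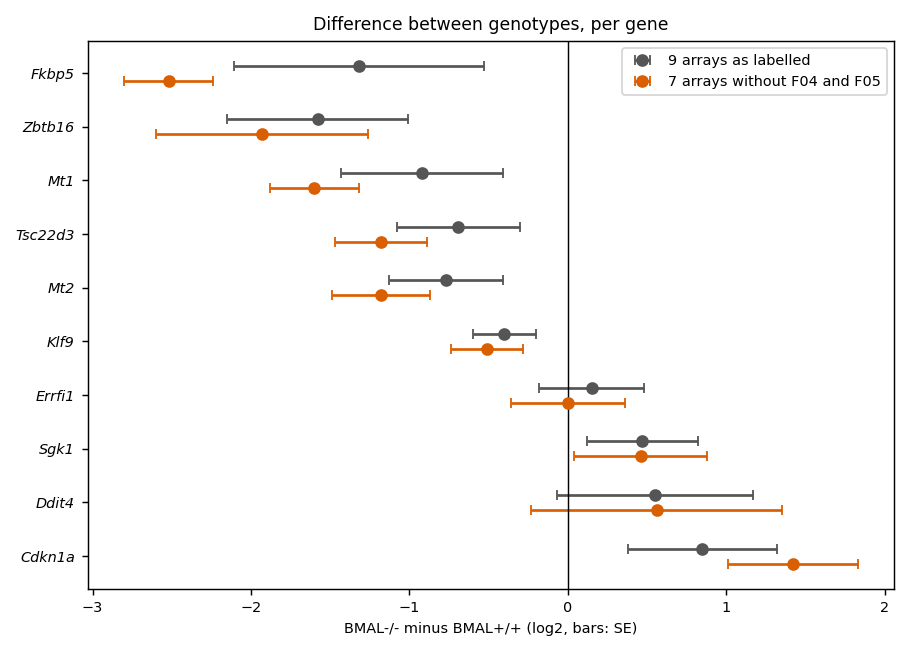
Difference BMAL-/- minus BMAL+/+ on the log2 scale (x axis) for the 10 genes, with SE bars, over the 9 arrays as labelled (grey) and the 7 without F04 and F05 (orange). Fkbp5 is at -1.32 and -2.52 and Cdkn1a at 0.85 and 1.42, while Errfi1, Sgk1 and Ddit4 have bars that reach or come near to 0.

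Counted over the 10 genes, 0 passed an adjusted p of 0.05 in limma as labelled, where 0.0% of all probe sets passed, and 0 passed in the 7 arrays, where 0.00888% did. The F-test of a one-way design, applied to each probe set alone, also called 0 of the 10 under both groupings. In the 7 arrays, limma with array weights called 4 of the 10 (Fkbp5, Tsc22d3, Mt1 and Cdkn1a), where 34.3% of all probe sets were called. With F08 left out, so that BMAL-/- was F02 and F03 alone, it called 3 of the 10 (Fkbp5, Tsc22d3 and Mt1), where 36.5% of all probe sets were. Both counts are near the share over all probe sets. As labelled, 1 gene (Zbtb16) was lower and 0 were higher at an unadjusted p under 0.05, against 0.75% of all probe sets that were lower and 7.92% that were higher. In the 7 arrays, 5 were lower at that level (Fkbp5, Tsc22d3, Zbtb16, Mt1 and Mt2), where 3.7% of all probe sets and 7.23% of those above the median brightness were lower, and 1 was higher (Cdkn1a), where 20% of all probe sets and 7.07% of the brighter ones were. All 10 genes were above the median brightness at their brightest probe set. As labelled, the groups did not overlap for 0 of the 10, against 0.773% of all probe sets. In the 7 arrays they did not overlap for 4 lower genes, Fkbp5, Tsc22d3, Mt1 and Mt2, against 2.59% of all probe sets and 5.04% of the brighter ones. The 1 higher gene without overlap, Cdkn1a, stands against 14.9% of all probe sets, and that share was not counted for the brighter ones. The median difference of the 10 was -0.54 as labelled and -0.84 in the 7 arrays, beside 0.03 and 0.04 over all probe sets. F04 and F05 were set aside for their clock genes with these data in view, so the 7-array values are not independent of that choice.

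The order of the arrays was shared by several of the genes. F02, F03, F04 and F08 were the lowest 4 of the 9 arrays in 4 of the 10 (Fkbp5, Tsc22d3, Mt1 and Mt2), as in 1.96% of all probe sets and 3.77% of the brighter ones. In 1 gene, Cdkn1a, they were the highest 4, as in 4.04% of all probe sets, a share not counted for the brighter ones. The same 4 arrays had the highest Arntl and Npas2 and the lowest Nr1d2 levels. Nr1d2, a REV-ERB repressor of the clock, read 5.08 to 5.89 on F02, F03 and F08 and 5.81 on F04, against 11.21 on F05 and 10.39 to 11.69 on F01, F07, F09 and F10. At their brightest probe sets, Sgk1, Errfi1, Ddit4, Klf9 and Zbtb16 did not follow that order. Because the arrays fall into separate sets at Fkbp5, Mt1 and Mt2, no correlation between the 10 genes is given as a test.

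**Figure D3:**
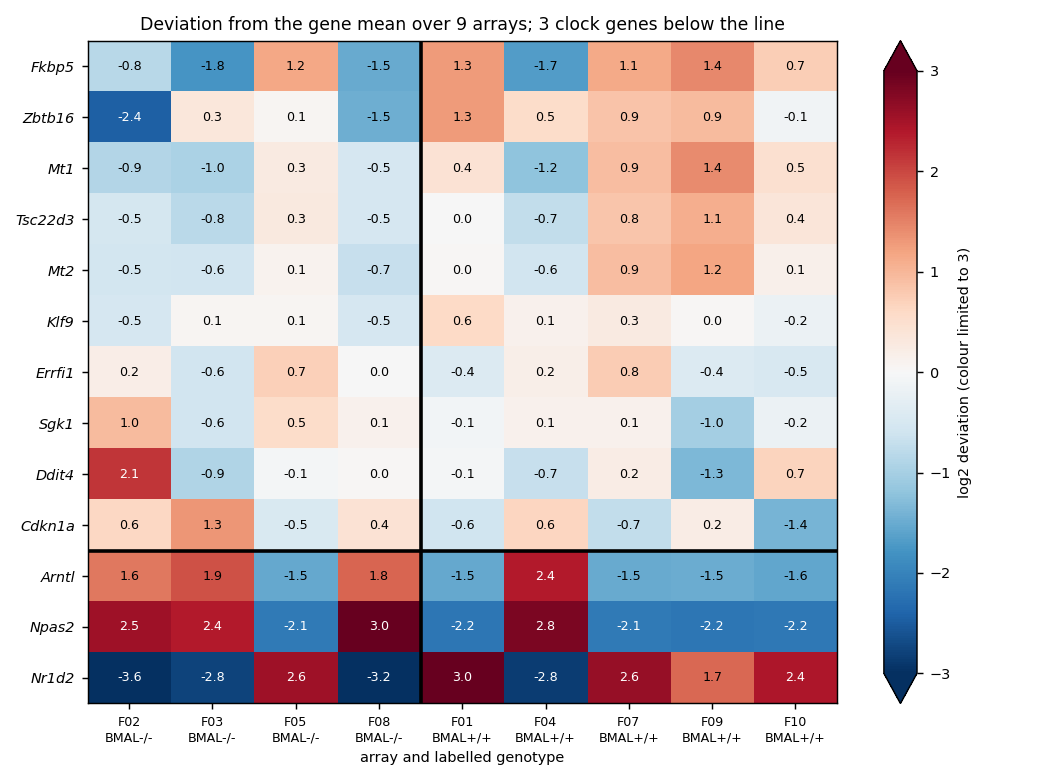
Log2 deviation of each array (columns, BMAL-/- left of the line) from a gene's mean over the 9 arrays, for the 10 genes and, under the line, for Arntl, Npas2 and Nr1d2. In Fkbp5, Mt1, Tsc22d3 and Mt2 the column of F04 is coloured like those of F02, F03 and F08, and that of F05 like those of F07, F09 and F10 or paler.

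The arrays with the largest 3' to 5' differences, F02, F03 and F04, were 3 of the 4 low arrays of Fkbp5, Tsc22d3, Mt1 and Mt2. The fourth, F08, had an Actb difference of 1.80 and a Gapdh difference of 0.05, within the range of the other arrays, and read 6.08 for Fkbp5, 7.68 for Tsc22d3, 9.59 for Mt1 and 7.25 for Mt2. With the mean of the Actb and Gapdh differences as a covariate in the 7 arrays, an alternative added after the data were seen, the difference was -2.71 ± 0.38 (SE) for Fkbp5 (limma adjusted p = 0.177) and -1.28 ± 0.34 (SE) for Mt1 (limma adjusted p = 0.551). In that fit Tsc22d3 differed by -0.92 ± 0.37 (SE), Mt2 by -1.09 ± 0.44 (SE), Zbtb16 by -2.26 ± 0.95 (SE) and Cdkn1a by 1.13 ± 0.56 (SE), each with a limma adjusted p of 0.931. Their unadjusted limma p-values there were 0.0519, 0.0505, 0.0579 and 0.092, so that these 4 genes no longer had an unadjusted p under 0.05. Fkbp5 and Mt1 kept one (limma unadjusted p = 0.000479 and 0.0108). In the 7 arrays, however, the covariate largely followed genotype. The Actb difference was 4.24 on F02 and 4.20 on F03, against 1.38 to 2.72 on F01, F07, F09 and F10. Only F08 in BMAL-/- lay in that range, so the fit leans on F08 and cannot separate RNA integrity from genotype well. Klf9 moved the other way, to -0.78 ± 0.28 (SE, limma unadjusted p = 0.0347, adjusted p = 0.931). As labelled, the covariate left -0.79 ± 0.73 (SE) for Fkbp5, -0.47 ± 0.36 (SE) for Mt1, -0.36 ± 0.30 (SE) for Tsc22d3 and 0.50 ± 0.41 (SE) for Cdkn1a. Zbtb16 was at -1.55 ± 0.66 (SE, limma unadjusted p = 0.0475, adjusted p = 0.633) in that fit. With F02, F03 and F04 left out, the 6 remaining arrays gave -1.32 ± 0.74 (SE) for Fkbp5 and -0.93 ± 0.38 (SE) for Mt1, with F05 still counted as BMAL-/-.

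**Figure D4:**
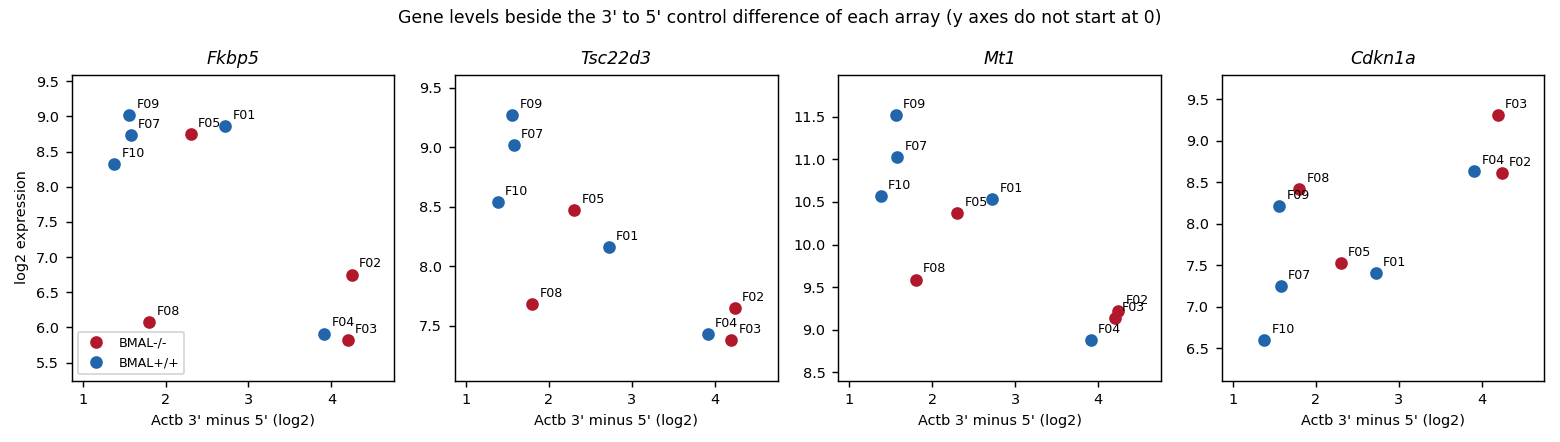
Log2 expression (y axis) of Fkbp5, Tsc22d3, Mt1 and Cdkn1a in each array against the 3' minus 5' difference of the Actb control probe sets (x axis, log2), BMAL-/- in red and BMAL+/+ in blue. F02, F03 and F04 lie at the right with differences of 3.91 to 4.24, and F08 lies at 1.80 with Fkbp5 at 6.08.

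The makeup of the dissected tissue also varied. Of 5 smooth muscle markers and 5 endothelial markers, 0 were below the median brightness of all probe sets. The endothelial markers averaged 6.61 to 7.31 in BMAL-/- and 6.76 to 7.69 in BMAL+/+, but did not move together. Pecam1 was lowest on F02 (5.14), F03 (5.75), F08 (6.17) and F04 (6.76), and Kdr was highest on those arrays (4.93 to 6.08). Cdh5, Tek and Vwf followed neither order. The mean of the smooth muscle markers was 11.35 to 12.83 in BMAL-/- and 11.94 to 13.13 in BMAL+/+. It was lowest on F03 (11.35), F02 (11.65) and F04 (11.94) and read 12.79 on F08, within the 12.73 to 13.13 of F01, F07, F09 and F10. The 5 fibroblast markers averaged 8.59 (F02), 8.07 (F03), 10.29 (F05) and 9.65 (F08) in BMAL-/-, against 10.02 (F01), 8.89 (F04), 10.45 (F07), 10.38 (F09) and 10.11 (F10) in BMAL+/+, so that their mean was low on the same 4 arrays as Fkbp5. Dcn, Dpt and Pi16 each had those arrays lowest, whereas Lum and Pdgfra did not. Lum read 10.12 on F08 and 9.63 on F01, and Pdgfra was highest on F04 (9.73) and lowest on F09 (8.49). The mean of the 5 macrophage markers was low there too, at 7.55 (F02), 6.67 (F03), 8.23 (F05) and 7.52 (F08) in BMAL-/-, against 7.81 (F01), 7.51 (F04), 8.30 (F07), 8.32 (F09) and 9.16 (F10) in BMAL+/+. Among its members only Mrc1 had F02, F03, F04 and F08 as its lowest arrays. Csf1r, for example, read 10.4 on F02, against 10.08 on F01 and 9.53 on F09. None of these fibroblast and macrophage markers was below the median brightness. The 5 heart muscle markers had the most negative median difference of the marker lists in the 7 arrays (-2.03). They averaged 5.08 (F02), 9.40 (F03), 8.65 (F05) and 6.29 (F08) in BMAL-/-, against 7.60 (F01), 5.67 (F04), 10.08 (F07), 10.46 (F09) and 8.30 (F10) in BMAL+/+, and so were low on F02, F04 and F08 but not on F03. The 5 lymphocyte markers, 1 of them below the median brightness, stood out on F02 (5.92) in BMAL-/- and on F10 (6.55) in BMAL+/+, and the 3 measured nerve markers ranged over 3.39 to 7.22 in BMAL-/- and 3.35 to 9.16 in BMAL+/+, highest on F09. The 3 measured adipocyte markers ranged over 9.07 to 10.22 in BMAL-/- and 9.34 to 10.73 in BMAL+/+. Their mean was lowest on F02 (9.07), F04 (9.34) and F03 (9.75) and read 10.22 on F08. Lep did not follow it, at 8.03 on F03 and 5.97 on F09. The 5 brown adipocyte markers averaged 10.40 to 11.43 in BMAL-/- and 10.39 to 12.34 in BMAL+/+, highest on F09, where Ppara (8.61) was not at its highest. The 5 skeletal muscle markers ranged over 6.86 to 11.11 in BMAL-/- and 3.65 to 11.13 in BMAL+/+. In bulk tissue, fewer cells of a type and less RNA per cell cannot be told apart, and the part of tissue makeup in the levels of these genes was not tested. The 5 immediate early genes, which respond to handling within minutes, averaged 5.34 to 7.14 in BMAL-/- and 5.27 to 7.18 in BMAL+/+.

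No call was made for the receptor, its chaperones or the enzymes that set its ligand. Of 12 such genes, 9 were measured (Hsp90ab1, Ptges3 and Ncor1 had no probe set of their own), and 0 had an adjusted or an unadjusted limma p under 0.05 under either grouping, with a median difference of -0.01 as labelled and -0.12 in the 7 arrays. Nr3c1, the glucocorticoid receptor, read 9.83 (F02), 9.73 (F03), 10.30 (F05) and 9.70 (F08) in BMAL-/-, against 9.93 (F01), 9.67 (F04), 9.83 (F07), 9.04 (F09) and 9.72 (F10) in BMAL+/+, and 8 of the 9 values lay within 9.67 and 10.30, with F09 below. Its difference was 0.25 as labelled and 0.12 ± 0.23 (SE) in the 7 arrays. Nr3c2, the mineralocorticoid receptor, which also binds corticosterone, differed by -0.20 ± 0.35 (SE) in the 7 arrays. Hsd11b1, which regenerates active hormone inside cells, differed by 0.56 ± 0.45 (SE), with its highest level on F03 (10.84). Hsd11b2, which inactivates the hormone, read 2.67 to 2.79 on all arrays, at the floor. Fkbp4, the co-chaperone that competes with the product of Fkbp5, read 7.40 (F02), 7.18 (F03), 8.04 (F05) and 8.75 (F08) in BMAL-/-, against 7.70 (F01), 7.11 (F04), 8.72 (F07), 9.08 (F09) and 8.75 (F10) in BMAL+/+. It was low on F02, F03 and F04 but not on F08, unlike Fkbp5, and differed by -0.79 ± 0.48 (SE) in the 7 arrays.

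A wider list of 32 other glucocorticoid-responsive genes was all measured, and 0 passed an adjusted p of 0.05 in limma under either grouping. At an unadjusted p under 0.05, 0 were lower and 2 higher as labelled, and 5 were lower and 4 higher in the 7 arrays, to be read against the shares over all probe sets given above for the 10 genes. The 4 of 32 that were higher in the 7 arrays lie below the 20% of all probe sets, although 28 of the 32 were among the brighter ones, where that share was 7.07%. The groups did not overlap there for 6 lower genes and 1 higher gene, against 2.59% and 14.9% of all probe sets, and 5.04% of the brighter ones that were lower. F02, F03, F04 and F08 were the lowest 4 arrays for 6 of the 32, against 1.96% of all probe sets and 3.77% of the brighter ones. They were the highest 4 for 0, against 4.04% of all probe sets. For the brighter probe sets, the shares higher without overlap and with these arrays highest were not counted. The median differences were -0.05 and -0.12, and in the 7 arrays 19 had a negative and 13 a positive difference. The 4 named next were picked for the smallest p in the 7 arrays, and their values there are a description. All 4 had negative differences and are among those 6. Fmo2, a flavin monooxygenase, read 9.21 (F02), 9.42 (F03), 12.21 (F05) and 10.67 (F08) in BMAL-/-, against 12.10 (F01), 10.03 (F04), 12.24 (F07), 12.10 (F09) and 12.00 (F10) in BMAL+/+, and differed by -2.34 ± 0.35 (SE, limma adjusted p = 0.208) in the 7. The other 3 were Anxa1 (-0.84 ± 0.18, SE), a mediator of the hormone's anti-inflammatory action, Glul (-0.59 ± 0.13, SE), the glutamine synthetase, and Sult1a1 (-0.99 ± 0.27, SE), a phenol sulfotransferase. On the other side, and named after their values were seen, the 4 higher genes were Trim63, Angptl4, Pdk4 and Il1r2, the last read at 2.34 to 2.53, at the floor. Trim63, a ubiquitin ligase of striated muscle, read 6.50 (F02), 6.06 (F03), 3.39 (F05) and 6.46 (F08) in BMAL-/-, against 2.55 (F01), 3.85 (F04), 5.68 (F07), 5.04 (F09) and 4.90 (F10) in BMAL+/+, and differed by 1.80 ± 0.71 (SE) in the 7 arrays without overlap (limma adjusted p = 0.208). F01 and F05, its lowest arrays, also had the lowest skeletal muscle markers (3.65 and 6.86), and the part of muscle in its level was not tested. Angptl4, an inhibitor of lipoprotein lipase, differed by 0.81 ± 0.34 (SE) and Pdk4, a kinase that restrains pyruvate dehydrogenase, by 0.79 ± 0.32 (SE), both with overlapping groups. Per1, a clock gene that the receptor induces directly, read 5.95 (F02), 4.66 (F03), 4.97 (F05) and 4.34 (F08) in BMAL-/-, against 5.82 (F01), 4.89 (F04), 5.29 (F07), 4.52 (F09) and 4.74 (F10) in BMAL+/+. F02 and F01, from different groups, were its highest arrays, and it differed by -0.11 ± 0.47 (SE) in the 7. Dusp1, a phosphatase that the receptor induces, differed by -0.61 ± 0.43 (SE).

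Genes outside the list with the most similar pattern were looked up among 9086 genes above the median brightness of all genes, by Pearson's r over the 9 arrays, as a description with no test. For Fkbp5 they were Hnrnpul2 (r = 0.970) and Cyp2e1 (r = 0.952), for Tsc22d3 Sat1 (r = 0.961) and Penk (r = 0.957), for Mt1 Papss2 (r = 0.972) and Susd2 (r = 0.968), and for Mt2 Tent5a (r = 0.984) and Bbs9 (r = 0.948). Cyp2e1 read 11.95 (F02), 11.34 (F03), 13.77 (F05) and 12.33 (F08) in BMAL-/-, against 13.30 (F01), 11.33 (F04), 13.36 (F07), 13.69 (F09) and 13.08 (F10) in BMAL+/+, the same low 4 arrays as Fkbp5. Those of Zbtb16 were Sox7 (r = 0.945) and Rnpepl1 (r = 0.942), those of Klf9 were Rarg (r = 0.969) and Tle1 (r = 0.923), and those of Cdkn1a were Hemk1 (r = 0.976) and Atp5j2 (r = 0.949). Sgk1 was closest to Trim8 (r = 0.950) and Eps15l1 (r = 0.943), Ddit4 to Traf3ip2 (r = 0.976) and Mtf2 (r = 0.966), and Errfi1 to Ptprj (r = 0.893) and Ptgfrn (r = 0.874). Where the 9 arrays fall into 2 sets, r mostly states that 2 genes share that split.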

How the data were processed

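RNA of 9 male mouse aortas was hybridised to Affymetrix mouse arrays, 1 per sample, per the labels. The authors deposited log2 values of 45101 probe sets. GCRMA and MAS5 are the tools listed in the submitters' processing notes, with neither's role stated. The background and normalization settings are not given in the sources used here. Values near 2 to 3 form a floor at which differences are not resolved, and precision is limited by how few arrays there are.

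Fits used 45037 probe sets, after removal of 64 controls. In GEO's platform annotation 34945 had 1 gene and 932 several, the second kind being left unnamed. Symbols were updated by gene identifier to RefSeq names (GRCm38.p6), which held 34741. Genotype was the single term of a model fitted across all probe sets with limma 3.58.1 in R 4.3.3 (lmFit, eBayes with a variance trend), two-sided, with Benjamini-Hochberg adjustment over all of them and adjusted p-values were called at 0.05. Each difference subtracts the BMAL+/+ mean from the BMAL-/- mean. The fit was run on simulated data with known changes and independent noise. Those data lack the separate sets of arrays seen here, so the run cannot speak to them. The 10 genes, the lists and the 7-array grouping were chosen with earlier results of these data known. The rule for named genes took the 10 at every probe set, 5 receptor genes, the 4 other responsive genes with the smallest p in the 7 arrays with Per1 and Dusp1, and 2 most similar genes per member. The planned correlations between members were not run, because the arrays fell into separate sets. The groups share no replicate numbers. Plots were drawn with matplotlib 3.10.9.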

Additional observations from a re-analysis of the deposited data

Results flagged for a closer look

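Fkbp5 on the array labelled BMAL+/+ F04 read 5.91, and the gap to the nearest of the other 4 BMAL+/+ arrays (8.32 on F10) was a large share of the group's range (0.773, critical value 0.71). Sgk1 on the BMAL+/+ array F09 read 8.95, for which that share was 0.733. F09 was also the lowest array for Ddit4 (3.52). A total of 20 groups were examined for such gaps, 2 for each of the 10 genes, and chance gives such a gap in about 1 group of 20.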

How the results depend on the processing

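Fkbp5, Tsc22d3, Zbtb16, Mt1, Mt2 and Klf9 stayed lower, and Cdkn1a and Sgk1 higher, in BMAL-/- under every alternative run, with Fkbp5 between -1.95 and -0.26 as labelled and between -2.78 and -1.52 in the 7 arrays. Sizes moved by over 1.5 times in several of them. With F01 counted as BMAL-/-, Fkbp5 was -0.75 as labelled, Zbtb16 -1.01 as labelled and -1.14 in the 7 arrays, and Klf9 -0.13 and -0.14. With array weights as labelled, Fkbp5 was -0.26, Zbtb16 -0.87, Klf9 -0.21 and Cdkn1a 0.46, and Sgk1 was 0.17 in the 7 arrays. With the covariate, Sgk1 was 0.29 and Klf9 -0.78 in the 7 arrays. Averaging all probe sets of a gene, dim ones included, gave as labelled Fkbp5 -0.82, Tsc22d3 -0.28, Mt1 -0.45 and Cdkn1a 0.44, and in the 7 arrays -1.52, -0.53, -0.79 and 0.72. Sgk1 ranged over 0.24 to 0.75 as labelled and 0.06 to 0.83 in the 7 arrays with 1 array left out. The sign of Errfi1 turned, to -0.03 as labelled with F01 counted as BMAL-/- and to -0.23 with the mean of its probe sets, and in the 7 arrays to -0.06 with arrays centred, -0.40 with array weights, -0.16 with F01 as BMAL-/- and -0.72 with the mean of probe sets. Leaving out 1 array gave Errfi1 -0.06 to 0.37 as labelled and -0.16 to 0.30 in the 7, and Ddit4 -0.06 to 0.95 and -0.30 to 1.22. Ddit4 was -0.10 with array weights as labelled. In the 7 arrays array weights called 4 of the 10 genes, and leaving out 1 array called 0 to 3. Probe sets called as labelled were 2 without F02, F03 and F04. In the 7 arrays they were 4, against 2 with quantile normalization, 2 with F01 as BMAL-/-, 2 with the 3' minus 5' covariate, 15448 with array weights and 2 to 16445 with 1 array left out. Probe sets at an unadjusted p under 0.05 as labelled were 3903, against 1818 (quantile), 1089 (centred), 2137 (no variance trend), 12339 (array weights), 636 (above the median brightness), 851 (F01 as BMAL-/-), 1833 (covariate), 1556 (without F02, F03 and F04) and 926 to 12949 with 1 array left out. In the 7 arrays they were 10680, against 5641 (quantile), 4207 (centred), 6516 (no variance trend), 21298 (array weights), 3184 (above the median brightness), 3761 (F01 as BMAL-/-), 2039 (covariate) and 2495 to 21212 with 1 array left out. The covariate and the set without F02, F03 and F04 were chosen after seeing the data. The cause of these changes was not tested. No paired analysis was possible because the groups share no replicate numbers. The planned correlation between the 10 genes and its alternative were not run. Probe sets near the floor cannot show a decrease.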
